A study of Mus musculus with 6 samples.

Results

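The semaphorins, plexins and neuropilins were followed in the prefrontal cortex of mice carrying a Cyfip2 mutation. Members were all genes of the deposited table whose mouse symbol is Sema3 to Sema7 with a letter a to g, a plexin of family A, B, C or D, or Nrp1 or Nrp2. That rule found 31 of the 18160 genes, 20 ligands (the semaphorins) and 11 receptors (9 plexins and 2 neuropilins), and all 31 reached the mean of 10 normalized counts that the test asked for. All mice were C57BL/6J at postnatal day 56. RNA sequencing covered 3 wild-type prefrontal cortex samples and 3 from Cyfip2 heterozygotes. Nothing else differs between the groups in the labels, which give neither the kind of mutation, nor the sex, nor the number of animals behind a sample. The p-values therefore measure the spread between these samples, which may be technical.

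Semaphorins are guidance proteins that steer axons, dendrites, blood vessels and immune cells. Class 3 semaphorins are secreted and mostly bind neuropilins, which pass the signal to plexins of family A. Classes 4, 5 and 6 span the membrane, class 7 is held there by a lipid anchor, and many of these bind plexins directly. The cytoplasmic part of plexins acts on small GTPases and, through them, on the actin cytoskeleton. In the adult cortex members of the family are known for roles at synapses, in myelinating cells and in blood vessels. CYFIP2 belongs to the WAVE regulatory complex, which links the GTPase RAC to branched actin.

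The table holds normalized counts, which are read estimates scaled by the authors so that samples can be compared. Sample totals were 36.4 to 37.1 M normalized counts (M for 1e+06), and the depth implied by the lowest values was 27.1 to 48.1 M reads. Wild-type sample 3 was the shallowest, and even the lowest member value in any sample corresponded to about 58.4 reads, so depth did not limit detection of any member. Cyfip2, the targeted gene, was lower in the heterozygotes without overlap, at 28834 ± 644 beside 44752 ± 1369 in the wild type (SD, n = 3 each). All 6 excitatory neuron markers were present in every sample, and none of the marker genes listed for the other cell types was at 0.

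None of the 31 members passed the test for a genotype difference. The smallest adjusted p was 0.76, that of Plxnd1 (limma-trend with Benjamini-Hochberg adjustment over the 15151 genes tested, threshold 0.05). Over all genes 0.0132% passed. At an unadjusted p under 0.05 there were 2 members, Plxnd1 and Sema7a, or 6.45% of the members beside 5.07% of all genes. The genotypes did not overlap for 3 members, Plxnd1, Sema3c and Sema4f, or 9.68% beside 10.5% of all genes tested. The shares at an unadjusted p under 0.05 and without overlap in either direction were thus near those of the whole transcriptome. All 3 members without overlap were lower in heterozygotes, 9.68% of the members beside 5.3% of all genes tested. That difference in direction rests on 3 genes and was not tested.

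The order of the members by level was nearly the same in all 6 samples, where no gene's rank varied by more than 4. Levels between genes are given as normalized counts per kb of the gene's exons (the union of all annotated exons), since longer transcripts give more reads. Sema7a stood first in every sample, at 2738 to 3345 per kb, and Sema6b came next in every sample, at 1117 to 1219 per kb. Plxnd1 and Plxna1 followed with mean levels of 779 and 693 per kb, in overlapping ranges. At the other end Sema3d, at a mean of 29.9 per kb, and Sema3b, at 20.7 per kb, were the lowest in every sample. Mean level over the 6 samples put Sema7a at percentile 97.3 of all genes tested, Sema6b at percentile 91.0 and Sema3b at percentile 14.3. Of the 30 neighbouring pairs in the order, 23 overlapped in their ranges over the 6 samples and 7 did not. The gaps that held in all samples lay below Sema7a, below Sema6b, between Plxna1 and Plxna2, between Plxnb2 and Sema4d, between Sema6c and Sema4c, between Nrp2 and Sema3d, and between Sema3d and Sema3b.

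**Figure D1:**
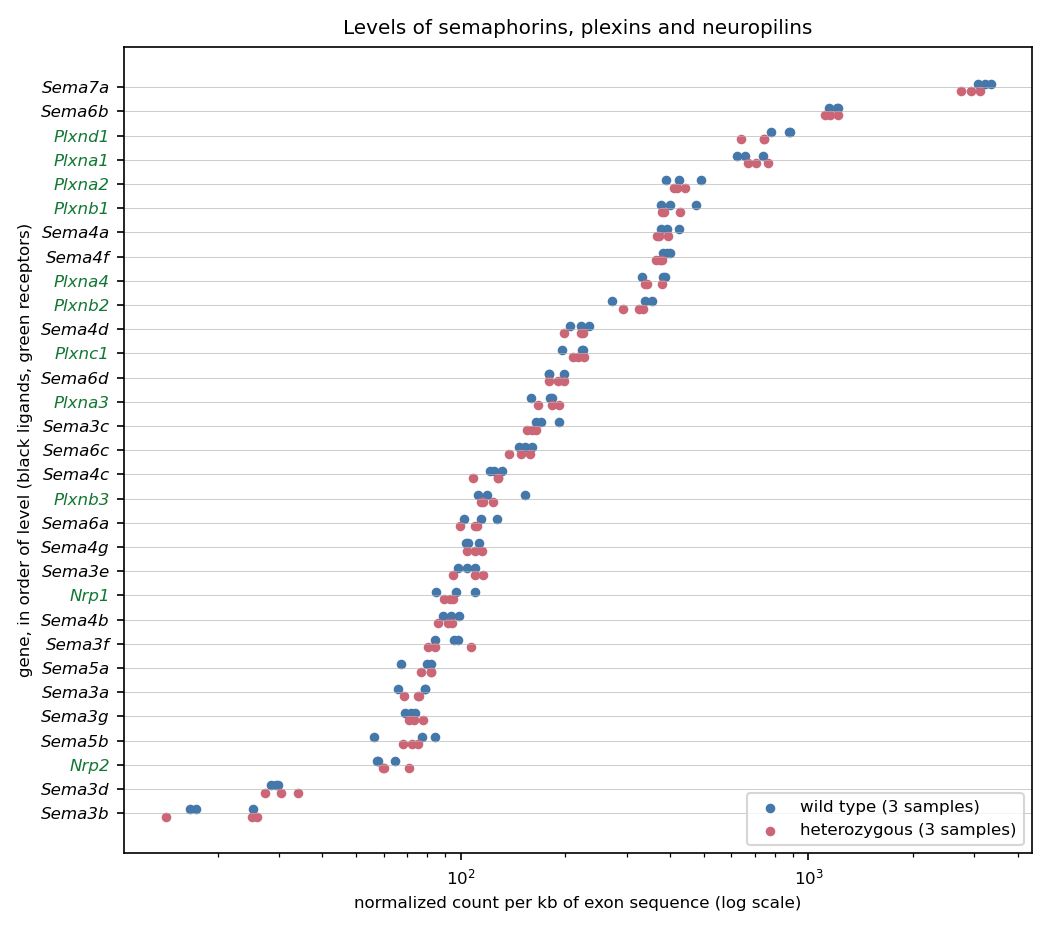
Normalized counts per kb of exon sequence (log scale) of the 31 genes in order of mean level, with 1 point per sample (3 wild type in blue, 3 heterozygous in red). Sema7a lies alone at 2738 to 3345 per kb and Sema3b at the bottom with a mean of 20.7 per kb, while most neighbours between them overlap.

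The length used for this scale matters for some members. With the longest annotated transcript in place of the exon union, Nrp1 moved from rank 22 to rank 13, Sema3a from rank 26 to rank 19 and Plxnb3 from rank 18 to rank 26. The first 5 ranks, Sema7a, Sema6b, Plxnd1, Plxna1 and Plxna2, were the same with either length. Which isoform each sample used was not measured here, so the middle of the order depends on this choice. The share of the neuropilins in the summed level given next, 1.51%, was 2.94% with the longest transcript, where Nrp1 ranked 7 and not 10 among the 11 receptors. Every other family share changed by less than 1.5 times.

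Ligands summed to more than receptors in every sample. The 20 ligands together gave 6907 ± 107 per kb in the wild type and 6530 ± 233 in heterozygotes (SD, n = 3 each). The 11 receptors gave 3733 ± 99.8 and 3589 ± 92.6. The receptor sums overlapped between genotypes. The ligand sums did not, but only by the gap between 6795 in wild-type sample 2 and 6794 in heterozygous sample 1. Sema7a, the largest part of the ligand sum, was at 3212 ± 138 per kb in the wild type and 2924 ± 184 in heterozygotes (SD, n = 3 each). Of the summed level of all members the 20 ligands gave 64.7% and the 11 receptors 35.3%. Sema7a alone gave 29.6%, so on this length scale the lead of the ligands rested on that gene. With the longest transcript these 3 shares were 64.8%, 35.2% and 24.8%. Whether the ligand sums overlap between genotypes without Sema7a was not tested. Class 6 gave 15.7%, class 4 gave 12.6%, class 3 gave 5.42% and class 5 gave 1.45%. Among receptors, plexin A genes gave 16.0% of the sum, plexin B genes 8.19%, Plxnd1 7.51%, Plxnc1 2.08% and the neuropilins 1.51%. The ratio of receptors to ligands was 0.543, 0.533 and 0.546 in wild-type samples 1, 2 and 3 and 0.541, 0.549 and 0.560 in heterozygous samples 1, 2 and 3. These ratios overlapped between genotypes, so the balance of the sums was not told apart.

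**Figure D2:**
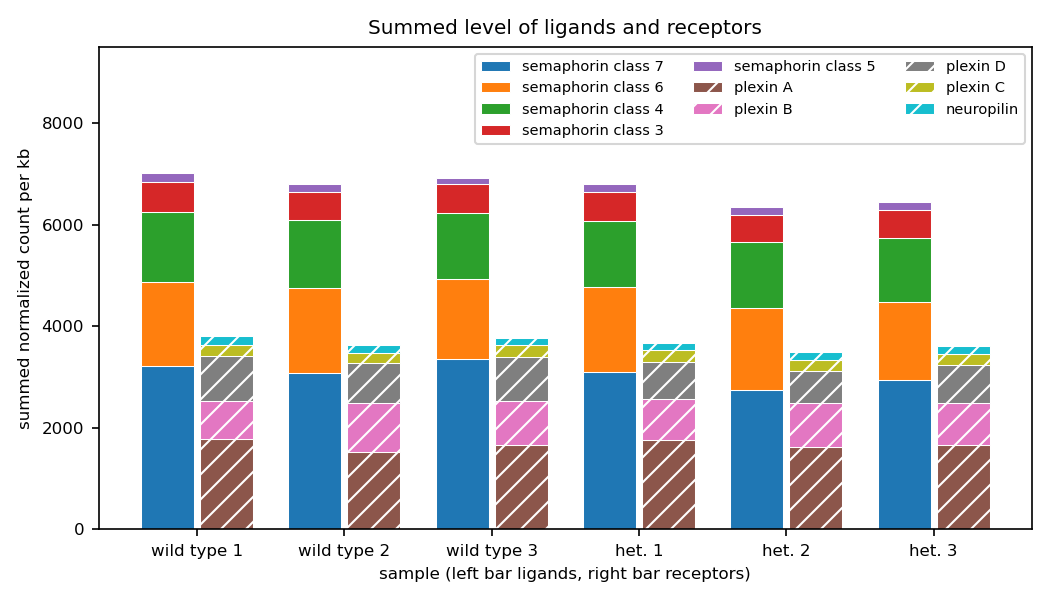
Summed normalized counts per kb in each of the 6 samples, stacked by family, with ligands in the left bar and receptors in the right, hatched bar. The ligand bar is the taller one in every sample, and its largest block is Sema7a.

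Ligands and receptors both lay close to wild type. The median log2 fold change was -0.035 for the 20 ligands, 12 of them below wild type, and -0.029 for the 11 receptors, 7 of them below. Over all genes tested 49.2% were below wild type and the median was 0.0020. Without wild-type sample 1 the ligand median was 0.0011, and without wild-type sample 2 the receptor median was 0.028, so each sign changed with 1 sample left out. The median size of the difference, sign aside, was 0.053 for the members and 0.069 over all genes. By class, 3 of 7 class 3 ligands, 5 of 6 of class 4, none of 2 of class 5, 3 of 4 of class 6 and the only one of class 7 were below wild type. Among receptors the same held for 2 of 4 plexin A genes, all 3 plexin B genes, Plxnd1 and Nrp1. None of these members passed the test.

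**Figure D3:**
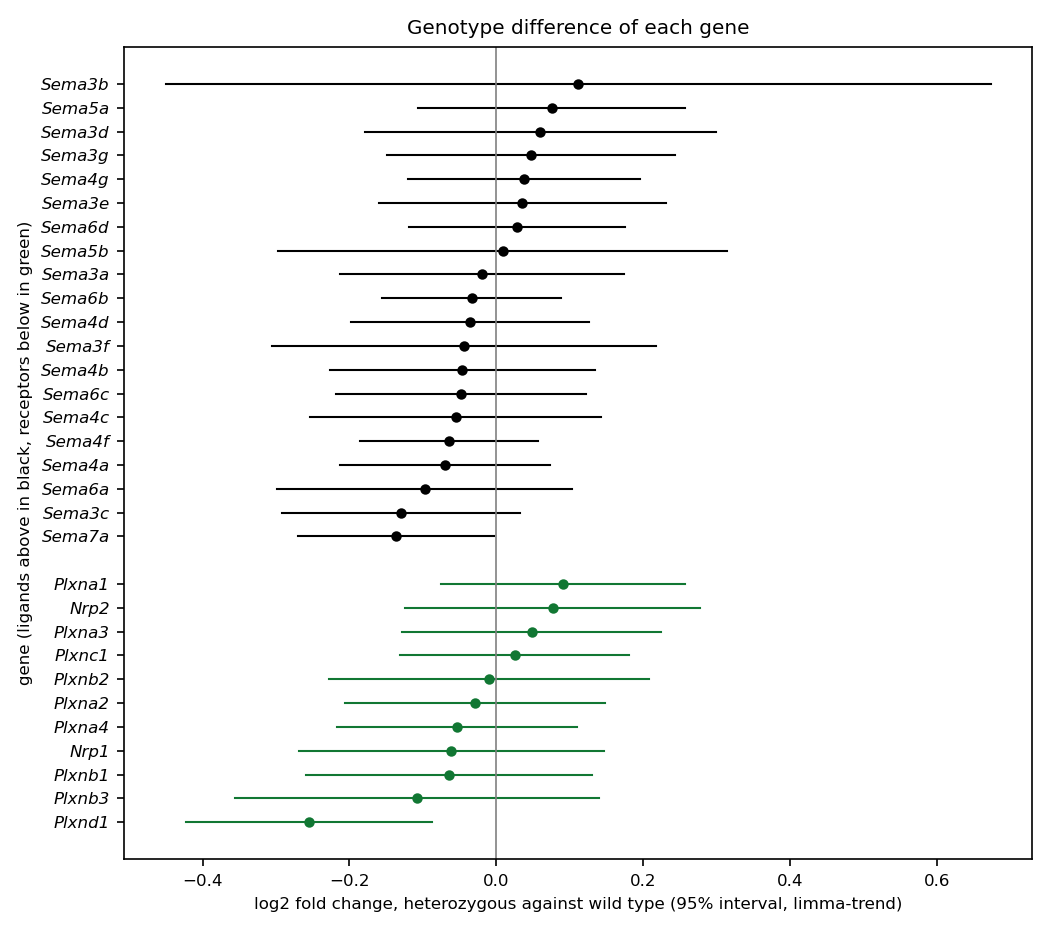
Log2 fold change of each gene, heterozygous against wild type, with the 95% interval of the moderated model (ligands in black, receptors in green). The intervals of Plxnd1 and Sema7a leave out 0 before adjustment, and that of Sema3b is the widest, from -0.45 to 0.67.

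Plxnd1, the receptor of SEMA3E and a regulator of vessel patterning and of synapse specificity, was lower in every heterozygous sample. It lies on the minus strand of chromosome 6 (115954811 to 115995005, GRCm38). Normalized counts were 6463, 5689.6 and 6411 in wild-type samples 1, 2 and 3 and 5443, 4683 and 5438 in heterozygous samples 1, 2 and 3. Sample 2 was the lowest of its genotype in both groups, and the highest heterozygous value lay below the lowest wild-type value. The means were 6188 ± 432 and 5188 ± 437 (SD, n = 3 each), so the heterozygous level was 83.8% of wild type. The log2 fold change was -0.26 ± 0.08 (SE), with a 95% interval of -0.42 to -0.09. By limma-trend the unadjusted p was 0.0070 and the adjusted p 0.76. An exact permutation test (two-sided) gave 0.1, below which a design of 3 against 3 cannot go. Over the alternative settings the log2 fold change lay between -0.31 and -0.18 and the adjusted p between 0.17 and 1.00. Sema3e, which encodes the secreted ligand of this receptor, overlapped between genotypes. Its values ranged from 909 to 1021 in wild-type and from 879.5 to 1077 in heterozygous samples, and its log2 fold change was 0.04 with an interval of -0.16 to 0.23.

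Sema7a, which encodes the lipid-anchored semaphorin known to signal through integrins and Plexin C1, was the most abundant member. It lies on the plus strand of chromosome 9 (57940112 to 57962865, GRCm38). The wild-type samples 1, 2 and 3 held 10626.5, 10121 and 11031 normalized counts and the heterozygous samples 1, 2 and 3 held 10241, 9030.1 and 9659. Heterozygous sample 1 lay above wild-type sample 2, so the genotypes overlapped. The means were 10593 ± 456 and 9644 ± 606 (SD, n = 3 each), with a log2 fold change of -0.14 ± 0.06 (SE). The unadjusted p was 0.047 and the adjusted p 0.95 by limma-trend, and the exact permutation p was 0.2. Plxnc1, the gene of its plexin receptor, held 1869, 1634 and 1871 in wild-type and 1816, 1757 and 1888 in heterozygous samples 1, 2 and 3. These values overlapped, and the interval of its log2 fold change ran from -0.13 to 0.18.

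**Figure D4:**
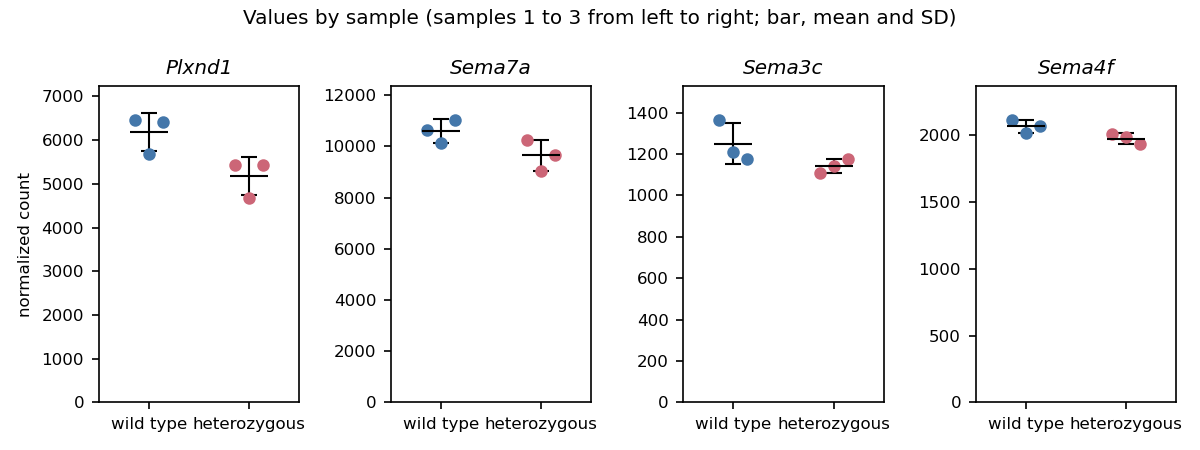
Normalized counts of Plxnd1, Sema7a, Sema3c and Sema4f in each sample (points, samples 1 to 3 from left to right within a genotype), with mean and SD. The genotypes do not overlap for Plxnd1, Sema3c and Sema4f, and overlap for Sema7a.

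Summed markers of 4 cell types did not overlap between genotypes, and their values are given beside those of Plxnd1 and Sema7a. All 7 upper-layer neuron markers were below wild type, and their summed level was 38442 to 45608 normalized counts in wild-type and 34633 to 37734 in heterozygous samples. Of the 6 excitatory neuron markers 5 were below, with sums of 267509 to 276186 and 241815 to 257470. Striatal markers, 5 of 8 below, summed to 6709 to 7379 and 5729 to 6007. Interneuron markers, 9 of 10 above, summed to 32322 to 35871 in wild-type and 36453 to 36985 in heterozygous samples. Singly, the genotypes did not overlap for 2 of 7 upper-layer and 2 of 6 excitatory neuron markers. The same held for 2 of 8 striatal and 3 of 10 interneuron markers, beside 10.5% of all genes tested. The sums give most weight to the most abundant markers. The other lists overlapped in their sums. Among them the genotypes did not overlap singly for 2 of 7 meningeal and fibroblast markers and 1 of 5 oligodendrocyte precursor markers. The count was 0 of 10 for oligodendrocyte, 0 of 8 for astrocyte and 0 of 7 for microglial markers. It was 0 of 8 for endothelial and pericyte and 0 of 10 for deep-layer markers. Endothelial and pericyte markers, 7 of 8 above wild type, summed to 12072 to 15418 in wild-type and 13857.5 to 15996 in heterozygous samples. Deep-layer markers, all 10 above, summed to 12200.2 to 13417 and 13196 to 13964. Astrocyte markers were above for 7 of 8, meningeal and fibroblast markers for 6 of 7, microglial markers for 5 of 7 and oligodendrocyte precursor markers for 4 of 5. No marker was at 0 and none passed an adjusted p of 0.05. Their part in the values of Plxnd1 and Sema7a was not tested. In tissue samples, fewer cells of a type and less RNA per cell cannot be told apart.

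The DNA just before the transcription start is shown for Plxnd1 and Sema7a, the pair with an unadjusted p under 0.05, and for Sema4f, another member without overlap, to set the 3 starts side by side. Each run is the 250 bases before the start in RefSeq's annotation of GRCm38.p6, 5′ to 3′ on the gene's strand. Capitals mark GC boxes (GGGCGG or its reverse complement CCGCCC, the core bound by SP family factors) and CCAAT boxes (CCAAT or ATTGG). The positions are chr6:115995006-115995255 on the minus strand for Plxnd1, chr9:57939862-57940111 on the plus strand for Sema7a and chr6:82939770-82940019 on the minus strand for Sema4f.
Plxnd1: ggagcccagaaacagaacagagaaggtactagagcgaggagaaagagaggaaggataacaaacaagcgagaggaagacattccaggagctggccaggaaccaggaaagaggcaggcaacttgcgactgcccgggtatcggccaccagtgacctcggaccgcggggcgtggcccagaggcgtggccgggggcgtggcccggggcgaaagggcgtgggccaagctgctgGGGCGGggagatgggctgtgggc
Sema7a: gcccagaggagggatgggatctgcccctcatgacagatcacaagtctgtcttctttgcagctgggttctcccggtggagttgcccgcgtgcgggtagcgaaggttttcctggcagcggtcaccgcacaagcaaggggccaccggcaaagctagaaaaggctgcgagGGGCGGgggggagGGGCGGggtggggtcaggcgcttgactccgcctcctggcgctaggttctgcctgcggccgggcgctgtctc
Sema4f: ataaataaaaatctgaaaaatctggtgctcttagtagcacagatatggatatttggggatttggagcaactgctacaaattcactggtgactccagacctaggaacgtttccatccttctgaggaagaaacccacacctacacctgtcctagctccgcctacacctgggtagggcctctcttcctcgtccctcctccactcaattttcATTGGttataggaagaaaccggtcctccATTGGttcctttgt

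The Plxnd1 and Sema7a stretches were rich in G and C, at 64.8% and 66.4%, with 16 and 17 CpG dinucleotides. Sema4f was at 46.0% with 4 CpG. Plxnd1 held 1 GC box and Sema7a 2, both without a CCAAT box, while Sema4f held 2 CCAAT boxes and no GC box. RefSeq's table had windows for 26 of the 31 members, 37 windows in all, and none for Plxna1, Plxna4, Sema3b, Sema3f and Sema6a. A GC box stood in 73.0% of the members' windows and in 32.7% of the 32851 windows of all genes. A CCAAT box stood in 18.9% of the members' windows and in 33.8% of all. The letters TATAAA, searched on both strands, stood in 0 of the 37 windows and in 12.4% of all. The CRE letters TGACGTCA stood in 0 of the members' windows and in 1.55% of all, and the E-box CACGTG in 5.41% and 6.02%. The median G and C content was 64.0% in the members' windows and 52.4% in all, and the motif shares were not corrected for that. Some genes have several windows, and these matches describe letters only.

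Among the secreted class 3 ligands Sema3c had the highest level per kb. SEMA3C acts through neuropilins and is known from neural crest and vessel development. Its normalized counts were 1365, 1211 and 1176 in wild-type and 1106, 1143 and 1174 in heterozygous samples 1, 2 and 3. The genotypes did not overlap, but only by the gap between 1176 and 1174. The difference on the log2 scale was -0.13 ± 0.07 (SE), the interval -0.29 to 0.03 and the adjusted p 0.95 by limma-trend. Without wild-type sample 1, its highest, the log2 fold change was -0.07. Sema3a, the classical repellent of cortical axons that also binds perineuronal nets, was at 1035 ± 105 in the wild type and 1018 ± 56.7 in heterozygotes (SD, n = 3 each). Sema3f, a ligand of neuropilin 2 that restrains dendritic spines, was at 483 ± 38.4 and 471 ± 73.6 (SD, n = 3 each). The remaining class 3 genes besides Sema3e, namely Sema3b, Sema3d and Sema3g, had log2 fold changes of 0.11, 0.06 and 0.05. Sema3b was the most variable member, with a coefficient of variation of 25.3% over the 6 samples, and its values ranged from 67.7 to 124 within the heterozygous group alone.

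Class 4 held Sema4a as the member with the highest level per kb. SEMA4A is known from immune cells and the retina. Counts of Sema4a were 2287, 2035.5 and 2113 in wild-type and 1982, 2009.7 and 2138 in heterozygous samples 1, 2 and 3, which overlapped. Its interval on the log2 scale was -0.21 to 0.07. Sema4f was the least variable member, with a coefficient of variation of 3.16% over the 6 samples. The values of Sema4f were 2115, 2016 and 2068 in wild-type and 2009.6, 1985 and 1932 in heterozygous samples 1, 2 and 3. They did not overlap, by the gap between 2016 and 2009.6, and the difference on the log2 scale was -0.06 ± 0.05 (SE), at an adjusted p of 0.96 by limma-trend. Sema4d, the ligand of Plexin B1 that organizes inhibitory synapses and is made by oligodendrocytes, ranged from 1581 to 1791 in wild-type and from 1526 to 1724 in heterozygous samples. Sema4b, Sema4c and Sema4g had log2 fold changes of -0.05, -0.06 and 0.04.

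In classes 5 and 6 every member overlapped between genotypes. Class 5 semaphorins carry thrombospondin repeats, and SEMA5A is known to restrain excitatory synapses. Sema5a held 1499, 1532 and 1261 in wild-type and 1538, 1535 and 1435 in heterozygous samples 1, 2 and 3. Its lowest value was that of wild-type sample 3, and the same sample was lowest for Sema5b, at 398 beside 483 to 597 in the other 5 samples. Class 6 semaphorins bind plexin A receptors and can also act as receptors themselves. For Sema6b the counts were 4831, 4782 and 4557 in wild-type and 4838, 4578 and 4433 in heterozygous samples 1, 2 and 3, with a log2 fold change of -0.03 and an interval of -0.16 to 0.09. Sema6a, which is also a gene of myelinating cells, was highest in wild-type sample 2, at 1118, beside 873 to 1006 in the other 5 samples. Sema6c and Sema6d had log2 fold changes of -0.05 and 0.03.

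Plexin A receptors, the signalling partners of neuropilins and of class 6 semaphorins, were on both sides of wild type. Plxna1 held 6683, 5625 and 5932 normalized counts in wild-type and 6941, 6067 and 6392 in heterozygous samples 1, 2 and 3. Plxna2, a receptor of SEMA6A, held 8412, 6669 and 7276 in wild-type and 7566, 7059.5 and 7199 in heterozygous samples. Both genes were highest in sample 1 and lowest in sample 2 of each genotype, and the groups overlapped. Plxna3, which transmits SEMA3F signals with neuropilin 2, held 1255, 1422 and 1445 in wild-type and 1310.1, 1513 and 1438 in heterozygous samples. Plxna4, which transmits SEMA3A signals with neuropilin 1, held 5378, 4687 and 5467 in wild-type and 5363, 4763 and 4828 in heterozygous samples. Their log2 fold changes were 0.09 for Plxna1, -0.03 for Plxna2, 0.05 for Plxna3 and -0.05 for Plxna4. Together the 4 intervals of these differences spanned -0.22 to 0.26.

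Plexin B receptors, which bind class 4 semaphorins, included a pair of genes that were highest in the same wild-type sample. Plxnb3, a gene of oligodendrocytes, held 728, 996 and 773 in wild-type and 805, 742 and 750.4 in heterozygous samples 1, 2 and 3. Plxnb1 held 3605, 4563 and 3827 in wild-type and 3697, 4091 and 3642 in heterozygous samples. Wild-type sample 2 was the highest of all 6 for both genes, as it was for Sema6a. Summed oligodendrocyte markers were also highest there, at 179337 normalized counts. They were at 136787 and 128329 in the other wild-type samples and at 124925 to 134173 in heterozygous samples. Sums of astrocyte, microglial and oligodendrocyte precursor markers were highest there too, at 184096, 14100 and 4542. The next highest samples held 183130, 13428 and 4374. Sema4d was not highest there, at 1707.5 beside 1791 in wild-type sample 1. All 10 oligodendrocyte markers were below wild type in heterozygotes and none was at 0. Their part in the Plxnb1, Plxnb3 and Sema6a values was not tested. Without wild-type sample 2 the log2 fold change of Plxnb3 turned from -0.11 to 0.03 and that of Plxnb1 from -0.06 to 0.03, while that of Sema6a went from -0.10 to -0.02. Plxnb2 held 2099, 2610.4 and 2739.8 in wild-type and 2266, 2516 and 2576 in heterozygous samples, with a log2 fold change of -0.01 and an interval of -0.23 to 0.21.

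**Figure D5:**
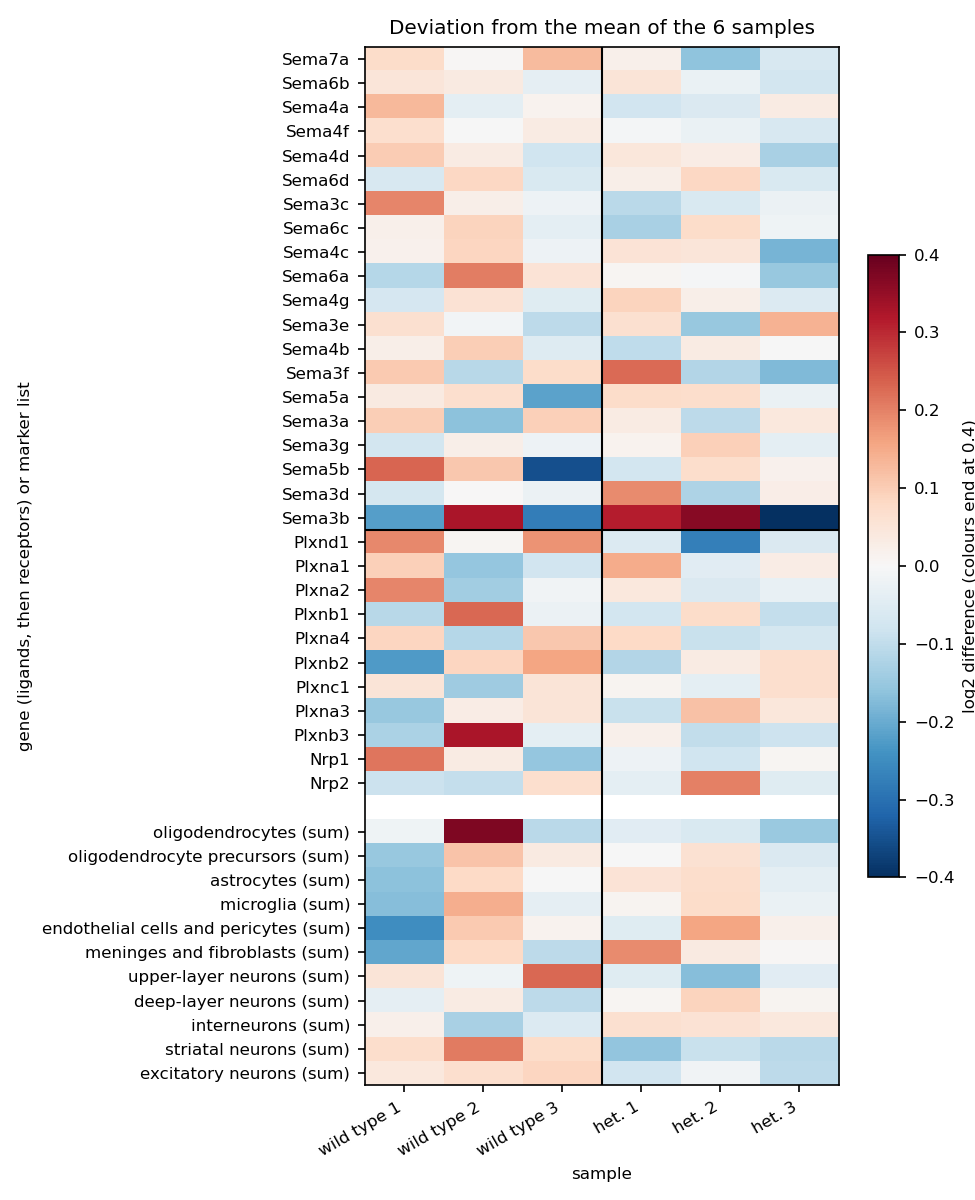
Log2 difference of each gene and of each summed marker list (rows) from its mean over the 6 samples (columns), from blue (lower) to red (higher). Wild-type sample 2 is high for Plxnb3, Plxnb1, Sema6a and the oligodendrocyte markers, and is highest for the other glial lists too. Plxnd1 is the only receptor with all 3 heterozygous samples below all 3 wild-type samples.

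Neuropilins, the ligand-binding co-receptors of class 3 semaphorins and of vascular endothelial growth factor, had the lowest levels per kb of exon among the receptors. Nrp1 held 1075, 948 and 832 normalized counts in wild-type and 913, 876 and 932 in heterozygous samples 1, 2 and 3. Nrp2 held 687, 682 and 765 in wild-type and 711, 839 and 705 in heterozygous samples. Both genes overlapped between genotypes, with log2 fold changes of -0.06 ± 0.09 for Nrp1 and 0.08 ± 0.09 for Nrp2 (SE). Per kb of exon, the ratio of Nrp1 to Nrp2 was 1.63 ± 0.29 in the wild type and 1.47 ± 0.18 in heterozygotes (SD, n = 3 each), a difference smaller than the spread. That ratio was above 1 in every sample. Of the 6 gene pairs whose ratio per kb was computed, 3 overlapped between genotypes (Nrp1 to Nrp2, Sema4d to Plxnb1 and Sema3a to Sema3f) and 3 did not. The ratio of Sema3e to Plxnd1 was 0.124, 0.134 and 0.112 in wild-type and 0.148, 0.148 and 0.156 in heterozygous samples 1, 2 and 3. For Sema7a to Plxnc1 it was 14.4, 15.7 and 14.9 in wild-type and 14.3, 13.01 and 12.95 in heterozygous samples. The ratio of Plxna2 to Plxna1 was 0.664, 0.625 and 0.647 in wild-type and 0.575, 0.613 and 0.594 in heterozygous samples. Heterozygotes were thus higher in the first of these ratios and lower in the other two. No test was made on the ratios. The 6 pairs were chosen by hand, and no share over other gene pairs was computed to set beside their count. The ratio of Sema3e to Plxnd1 holds a gene that was itself without overlap. That of Sema7a to Plxnc1 holds a gene with an unadjusted p of 0.047 by limma-trend. Neither ratio is thus separate from the difference of that gene.

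Other genes of the pathway held no member past an adjusted p of 0.05 either. Of 14 co-receptors 9 were above wild type. Cntn2, an axonal adhesion molecule, was at 5843 ± 408 in the wild type and 5238 ± 137 in heterozygotes (SD, n = 3 each), and Chl1, an adhesion molecule that joins neuropilin 1 in SEMA3A signalling, at 3934 ± 271 and 4373 ± 298. Their log2 fold changes were -0.16 ± 0.06 and 0.15 ± 0.07 (SE). The 5 CRMP genes, whose proteins carry SEMA3A signals to microtubules and of which CRMP2 is encoded by Dpysl2, had 3 members above wild type and 2 below. Dpysl5 and Crmp1 had the smallest p among them, at log2 fold changes of 0.14 ± 0.12 and 0.05 ± 0.05 (SE). In the MICAL list, enzymes and relatives of the enzymes that oxidize actin filaments downstream of plexins, 2 of 5 were above and 3 below. Mical2 was at 18622 ± 1972 in the wild type and 16617 ± 414 in heterozygotes (SD, n = 3 each), and the groups overlapped because wild-type sample 2 was at 16489. Its log2 fold change was -0.16 ± 0.07 (SE), beside 0.44 ± 0.24 for the low-level gene Micall2.

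The GTPase partners of plexins (small GTPases and their regulators) were evenly split, 10 above and 10 below wild type of 20. Their median log2 fold change was -0.00053. Rhod, a low-level gene, was at -0.66 ± 0.31 and Rnd2 at 0.11 ± 0.06 (SE). Among 15 kinases and adaptors 10 were below wild type, with Pak1, a kinase activated by RAC, at -0.15 ± 0.06 and Gipc1, an adaptor of plexins and neuropilins, at -0.11 ± 0.07 (SE). The list of other guidance cues and receptors (slits, netrins, ephrins and their receptors) lay below wild type for 20 of 31 genes, at a median of -0.01. Its members with the smallest p were Robo3, of the roundabout receptor family, at 4507 ± 269.5 and 3460 ± 427 (SD, n = 3 each) and the netrin gene Ntn1 at 303 ± 25.3 and 376 ± 24.9. Robo3 had a log2 fold change of -0.39 ± 0.09 and Ntn1 of 0.31 ± 0.10 (SE), with adjusted p values of 0.67 and 0.88 by limma-trend. The genotypes did not overlap for 4 of these 31 genes (12.9%), 2 of 14 co-receptors and 0 of 5 CRMP genes. The same held for 1 of 5 in the MICAL list, 4 of 20 GTPases and regulators (20%) and 1 of 15 kinases and adaptors. Over all genes tested the share was 10.5%.

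Some members share exon sequence with another annotated gene, so their reads may be split or merged. On the opposite strand this held for Plxna1 (970 bases shared with Gm26811), Sema4c (334 bases), Plxnb1 (257 bases) and Plxna4 (110 bases), and on the same strand for Nrp1, Sema4a and Plxnc1 (80, 73 and 115 bases). The kit was stranded, but the sources used here do not say whether strand was used when reads were assigned. Whether antisense reads were counted for the first 4 is therefore not known. Plxnd1, Sema7a, Sema3c and Sema4f share none.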

How the data were processed

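RNA was sequenced from prefrontal cortex with a stranded, poly(A)-selecting kit, per the labels' protocols. The submitters' processing notes name Salmon 0.11.2, R 3.6.0, DESeq2 1.19.11 and GRCm38 but not what each was used for. What the authors deposited is a normalized signal for each gene, not whole reads, so no count model was used. Genotype was taken from the sample titles. Symbols came from the gene table for 18122 of 18160 identifiers, and lengths and positions from GENCODE M21 (GRCm38).

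The test was limma-trend (limma 3.58.1, R 4.3.3) on log2(value + 1) with genotype as its only term. It ran over every gene whose mean was 10 or more, with Benjamini-Hochberg adjustment over them all. The added 1 makes fold changes of low genes smaller than they are. The procedure was first tested on simulated whole counts with equal depth in all samples and the same spread setting for every gene. The deposited values differ in these respects, so that run checks the code and not its fit to these data. Implied depth is the total divided by the most common low value, an estimate that covers counting error only. Members and lists were chosen with earlier results of these data known, so no test was made over a list. Named in full were the neuropilins, the plexins, the ligand with the highest level per kb of each class, members with an unadjusted p under 0.05 or without overlap, and the genes with the smallest p in each pathway list. Other members were named for their known partners, their spread or their wild-type sample 2 value after these were seen. Alternatives were a trimmed-mean rescaling, robust shrinkage or no trend in limma, a minimum mean of 0 or 50, an added 0.5 or 5 in place of 1, the sample number as a block, each sample left out, 0.1 as the threshold, and the longest transcript as gene length.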

Additional observations from a re-analysis of the deposited data

How the results depend on the processing

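No member passed an adjusted p of 0.05 under any alternative tried, nor at a threshold of 0.1. The smallest adjusted p of any member was 0.17, that of Plxnd1 with the sample number as a block. Over all genes 2 passed, with 1 without the trend, 1 with a mean of at least 50, and 1 to 4 with a sample left out. The median log2 fold change of the ligands lay between -0.062 and 0.0011 and that of the receptors between -0.043 and 0.028 with a sample left out. Other settings kept both within 0.001 of the values reported. Of the 434 member fits under alternatives 405 kept sign and side of the threshold and 29 took the other sign, all with a sample left out. Members that kept their sign throughout were 12. With a sample left out their log2 fold change ranged from -0.18 to -0.090 for Sema7a, from -0.068 to -0.0048 for Sema6b, from -0.31 to -0.18 for Plxnd1, from 0.036 to 0.16 for Plxna1, from -0.11 to -0.023 for Sema4a, from -0.082 to -0.048 for Sema4f, from -0.12 to -0.012 for Plxna4, from -0.17 to -0.065 for Sema3c, from -0.18 to -0.019 for Sema6a, from 0.0036 to 0.076 for Sema4g, from -0.083 to -0.0071 for Sema4b and from 0.011 to 0.078 for Sema3g. For the other 19 members the log2 fold change with a sample left out ranged from -0.11 to 0.062 for Plxna2, from -0.14 to 0.035 for Plxnb1, from -0.13 to 0.065 for Plxnb2, from -0.084 to 0.021 for Sema4d, from -0.039 to 0.058 for Plxnc1, from -0.0050 to 0.077 for Sema6d, from -0.016 to 0.11 for Plxna3, from -0.10 to 0.0054 for Sema6c, from -0.10 to 0.024 for Sema4c, from -0.20 to 0.028 for Plxnb3, from -0.026 to 0.12 for Sema3e, from -0.15 to 0.031 for Nrp1, from -0.17 to 0.033 for Sema3f, from -0.013 to 0.13 for Sema5a, from -0.11 to 0.027 for Sema3a, from -0.17 to 0.13 for Sema5b, from -0.0046 to 0.13 for Nrp2, from -0.018 to 0.14 for Sema3d and from -0.041 to 0.39 for Sema3b. Deviations of same-numbered samples from their group means had correlations of 0.13, 0.12 and -0.0052 for samples 1, 2 and 3. Those of differently numbered samples ran from -0.16 to 0.046. These values do not settle whether the number pairs the samples. With the sample number as a block 2 genes and 0 members passed, and the medians were -0.035 and -0.029. Precision is limited by 3 samples per genotype, and the narrowest 95% interval of a member, that of Sema4f, ran from -0.19 to 0.06.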
